A study of Mus musculus with 10 samples.

Results

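The deposited table examined here sets cells labelled Bsecs, sorted from the mammary glands of Bptf knockout female mice, beside basal (myoepithelial) mammary cells. Its genes were chosen by a mean normalised value of at least 50 over its pair of columns, which 6090 of 24000 listed genes reached. The study sequenced RNA of FACS-sorted mammary epithelial cells in 10 libraries that form 5 groups of 2, namely Bptf wild-type luminal, knockout luminal, wild-type myoepithelial and knockout myoepithelial cells and knockout Bsecs. Every mouse, wild type or knockout, had received tamoxifen (15 mg/kg in total) before the cells were isolated. The alleles, any Cre line and its promoter, the age of the mice, the sort markers and any pooling of animals were not stated in the labels. The labels do not spell out what Bsecs stands for. The deposited tables hold 1 column per group, headed as a mean, with no column per library, so no value below has a replicate error and no difference has a test. The files do not say if the 2 libraries were summed into a column or only 1 was used. The libraries titled knockout luminal also carry a source label that names wild-type mice, so knockout luminal below is the title's name for that column.

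The basal column used here is named in conflicting ways. It holds 2359861 counts and is headed knockout in this table, while the same counts are headed wild type in the table that compares basal cells of both genotypes. It is called the larger basal column below, and whether a difference from it goes with the cell type alone or also with the Bptf genotype cannot be told apart. Bptf, the subunit of the NURF remodelling complex that binds modified histones, had 645 counts in Bsecs against 780, a basal over Bsecs ratio of 1.10 (0.989 to 1.22). A count over the whole gene does not check a deletion of some of its exons. The 11 measured NURF and ISWI subunits held none past 4-fold, and their median log2 ratio of -0.16 lay near that of all genes (0.08).

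The mammary epithelium is a bilayer. Luminal cells line the duct and carry simple keratins, tight junctions and hormone receptors, and basal cells carry stratified-type keratins, rest on the basement membrane, contract to eject milk and include cells that can regrow a gland when transplanted. When stratified or glandular epithelia are injured or placed in culture, their keratinocyte-like cells are known to switch on wound keratins, EGF-family ligands, proteases and cornified-envelope precursors. The labels were checked against these classes. The larger basal column held 1844 counts of Krt5 and 12085 of the smooth muscle actin Acta2, against 6 of the luminal keratin Krt7. The Bsecs column held Krt5 (3139 counts) and Krt14 (8490), but also Krt7 (1222), so keratins of both layers were read in it.

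Bsecs and the larger basal column gave 3659403 and 2359861 recovered read counts over 12497 and 13957 detected genes. The ribosomal precursor Rn45s took 32.2% of the Bsecs counts and 9.76% of the basal ones, against 10.6% to 16.2% in the other 3 columns of the series. A fold is the ratio of the authors' deposited normalised values. The range in parentheses after it is an exact 95% Clopper-Pearson interval of how the gene's reads split between the columns. These intervals, and the floor of 3 counts used where a column had 0, cover counting error only, because PCR copies were not marked with molecular identifiers and are not independent. A difference was called at 4-fold or more. A floor bound treats the counts of the gene's other column as exact. For Tenm2, with 0 counts against 1032, it is 313, while the exact interval begins at 254, and the floor bounds given below likewise exceed the lower ends of their intervals. A gene that reached the minimum only through 1 column had to differ. The counts of called members and the group medians below, and any ranking by them, therefore describe the measured genes and not their whole lists. "Higher" and "lower" below always mean Bsecs relative to the larger basal column. These calls do not all carry over to the smaller basal column. For several called genes, among them Hbegf, Plau, Plaur, Tnfaip3, Npm1 and Slc2a1, the level there lay within 4-fold of that in Bsecs. The same held for genes called lower, such as Fzd3 and Cdh11. For others called lower, among them Oasl2, Mmp3, Dcn and Lum, the level in the smaller basal column was below that in Bsecs.

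Of the 6090 genes, 458 (7.52%) passed 4-fold as higher and 454 (7.45%) as lower, 15.0% in either direction. Another 3701 genes (60.8%) lay within 2-fold. At 10-fold the counts were 184 higher and 206 lower, and at 100-fold 32 and 30. These counts depend on how the columns are scaled. Scaling by total counts moves every log2 ratio by -0.77 and gives 210 higher and 1003 lower genes, and leaving Rn45s out of the totals moves them by -0.36 and gives 327 and 647, so that 17.3% and 33.6% of the calls were higher in place of 50.2%. Medians of gene groups are therefore given beside the all-gene median of 0.08, and a group median between 0 and 0.77 turns below 0 when totals are used. With Benjamini-Hochberg adjustment of the unadjusted p-values that the authors' deposited table gives, 34 of 14986 genes (0.227%) passed 0.05 as higher and 38 (0.254%) as lower, and all 72 are among the 4-fold calls. At the minimum itself, Sike1 (mean 50.01, 29 against 73 counts) and Tnfrsf23 (50.01, 59 against 40) were just inside, and Bbs9 (49.96, 28 against 74) and Mlkl (49.96, 48 against 52) just outside.

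**Figure D1:**
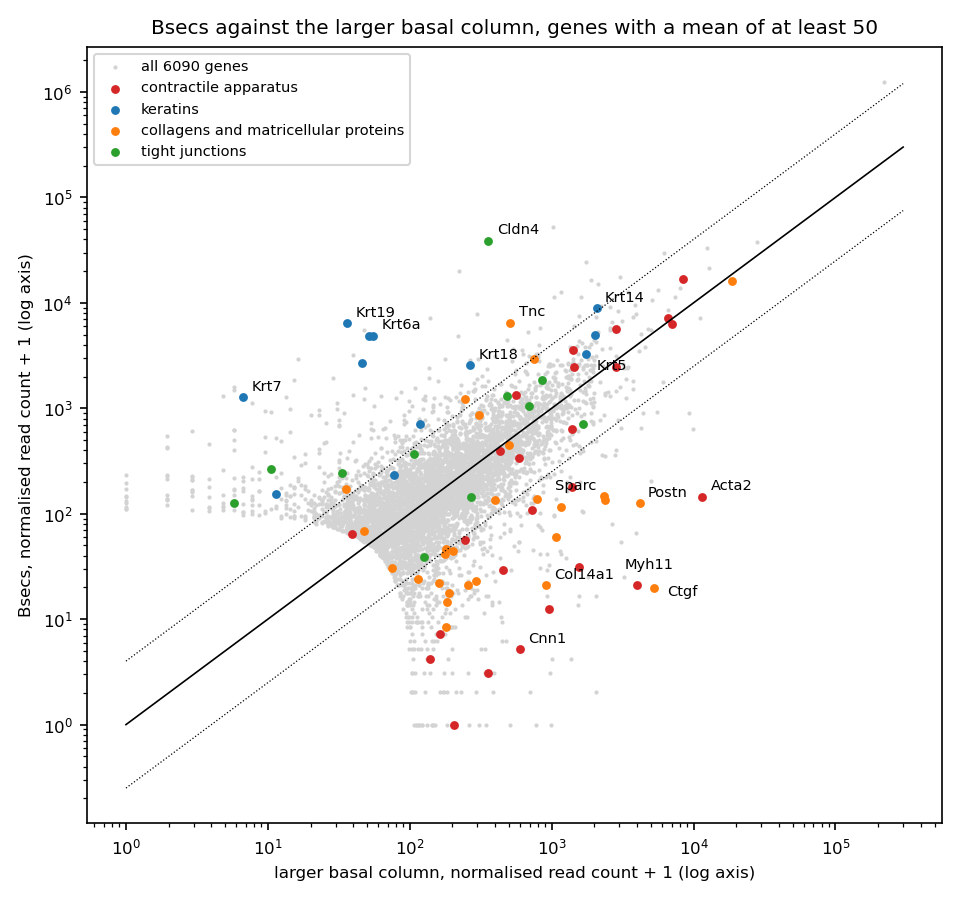
Normalised value plus 1 in Bsecs (vertical axis) against the larger basal column (horizontal axis), both on log scales, 1 point for each of the 6090 genes, with dotted lines at 4-fold and coloured points for 4 gene groups. The 458 higher genes lie above the upper dotted line, with Cldn4 and most keratins among them, and the 454 lower genes below the other, with Acta2, Myh11, Postn and Ctgf; 5178 lie between.

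The contractile apparatus was the group with the most lower members. Of 25 measured genes 13 were lower and none higher, with a median log2 ratio of -2.12 (-0.80 over the members with a mean of at least 200). Smooth muscle actin Acta2 had 137 counts in Bsecs against 12085 (80.2-fold lower, 67.8 to 95.6), and the smooth muscle myosin heavy chain Myh11 19 against 4223 (202-fold, 129 to 336). Their levels in Bsecs lay nearer to those of luminal cells than to those of basal cells. On a common scale over the 5 columns of the series, Acta2 stood at 144 in Bsecs, 33.9 and 66.5 in wild-type and knockout luminal cells, and 11621 and 16616 in the larger and the smaller basal column. Myh11 stood at 20.02 in Bsecs, 7.14 and 18.1 in the luminal columns, and 4061 and 4599 in the basal ones. Synm, an intermediate filament protein of muscle, had 0 counts against 214, which is at least 64.8-fold lower. Not every actin-binding member of the list was low. Tpm1 and Flna, named after their values were seen, were at 16151 against 8780 counts and 6870 against 6876 (2.02-fold and 1.10-fold), and the cytoplasmic actin Actb, likewise, had 28503 against 6490 (4.83-fold higher, 4.70 to 4.96). Of 10 measured genes in the list of SRF and myocardin regulators, 2 were higher and none lower by the 4-fold rule, with 4 below 1. The 2 higher ones were Tead4 (390 counts against 23) and Foxo1 (814 against 94), and not Srf or Mkl1. Srf itself had 957 counts against 399 (2.64-fold, 2.35 to 2.97) and its co-activator Mkl1 57 against 170 (2.71-fold lower, 2.00 to 3.73), neither of them called. Reads of Acta2 and Actg2, like those of other near-identical paralogs named below (keratins, tubulins, ribosomal proteins and Ifi200 genes), may be shared, and the sources used here do not state how reads with several matches were counted.

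In the list of receptors and channels of myoepithelial contraction 6 of 12 measured genes were lower as well, with a median of -2.34. Not all of its members are receptors or channels. The lowest was the ectoenzyme Mme, with 1 count against 2169 (1972-fold, 354 to 77918). The oxytocin receptor Oxtr, which starts milk ejection, had 1 count against 306 (278-fold, 49.6 to 11023). Its level was 1.79 in wild-type luminal cells and 0 in knockout ones, and 208 in the smaller basal column. The calcium channel subunits Cacna1c (21 against 176) and Cacna2d1 (13 against 443, 30.98-fold, 17.9 to 58.6) and the cGMP-dependent kinase Prkg1 (10 against 351) were lower too. Another 2 members went the other way. The ATP-gated channel P2rx4 was 4.57-fold higher, and the contraction-inducing peptide endothelin 1, Edn1, had 440 counts against 3 (161-fold, 54.8 to 785). Outside this list, the sodium channel gene Scn7a (15 against 2139) and Stac2, an adaptor of voltage-gated calcium channels (0 against 814, at least 247-fold), were among the 15 leading lower genes. These bulk ratios cannot separate fewer cells of a type from less RNA per cell.

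Because contractile genes are classical targets of SRF, the 250 bases before the annotated starts were searched on both strands for its CArG box. RefSeq promoters (GRCm38.p6) were matched to 20 of the 25 contractile genes, 24 promoters in all. Of these, 3 (12.50%) held the box, those of Cnn2, Myl9 and Vcl, beside 1.47% of all 32851 promoters. Of the 13 lower contractile genes only 8 had a promoter to search, and 1 of these 8 promoters (12.50%) held the box. It was that of Myl9, a regulatory light chain of smooth muscle myosin (102 counts against 765, 6.82-fold lower, 5.54 to 8.47). The lower genes without a promoter could not be searched. Cnn2, a calponin of many cell types, had 1274 against 592, and the focal adhesion protein vinculin, Vcl, 2329 against 1517. They are shown because the same box stands before a gene that was called lower and before 2 that were not called, with the box in capitals. The files are on mm9, so the GRCm38.p6 positions describe the sequences only. They are chr2:156775263-156775352 on the plus strand for Myl9, chr10:79988504-79988593 (plus) for Cnn2 and chr14:20929148-20929220 (plus) for Vcl.
Myl9: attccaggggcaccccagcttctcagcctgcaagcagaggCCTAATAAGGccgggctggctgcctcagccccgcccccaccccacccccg
Cnn2: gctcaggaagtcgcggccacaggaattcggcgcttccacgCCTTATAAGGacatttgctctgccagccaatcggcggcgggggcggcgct
Vcl: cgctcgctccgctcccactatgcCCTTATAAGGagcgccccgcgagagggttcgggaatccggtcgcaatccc

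Keratins of the basal layer were not lower with the contractile genes. All 7 measured basal and wound keratins had a ratio above 1 and 5 passed 4-fold, with a median of 3.74. Krt5, the basal partner keratin, had 3139 counts against 1844 (1.87-fold, 1.77 to 1.98), and Krt14 8490 against 2175 (4.29-fold, 4.10 to 4.50). Keratins of wounds and hyperproliferation were not alike. Krt6a had 4664 counts against 57 (90.01-fold, 69.3 to 119) and Krt16 4586 against 53 (95.2-fold, 72.6 to 127), but Krt17 4753 against 2125 (2.46-fold, 2.34 to 2.59), which was not called and stood at 5007 on the common scale in Bsecs and 7570 in the smaller basal column. Krt15, a keratin of basal progenitors in stratified epithelia, had 2557 against 47 (59.8-fold, 44.9 to 81.7). Krt6a, Krt16 and Krt15 were lower in every other column. On the common scale Krt6a stood at 4913 in Bsecs and between 3.98 and 356 in the other 4, Krt16 at 4831 and between 50.97 and 244, and Krt15 at 2694 and between 6.25 and 92.5. Krt14 differed in this respect, with 8944 in Bsecs beside 2092 and 7584 in the larger and the smaller basal column, so its 4-fold call depends on which basal column is used.

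Luminal keratins were higher as well, 4 of 5 measured, with a median of 3.27. Krt19 had 6121 counts against 37 (182-fold, 132 to 259), Krt7 1222 against 6 (224-fold, 103 to 612), Krt18 2429 against 277 (9.65-fold, 8.52 to 10.96) and Krt8 671 against 123 (6.0-fold, 4.94 to 7.33). Their levels in Bsecs were not those of luminal cells. Krt18 stood at 2559 in Bsecs against 17662 and 16915 in wild-type and knockout luminal cells, and Krt8 at 707 against 4902 and 4331. Krt19 was nearer to them, at 6448 against 8229 and 12368. Thus the simple keratins of Bsecs lay between basal and luminal values, while Krt6a, Krt16 and Krt15 lay above all of them.

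**Figure D2:**
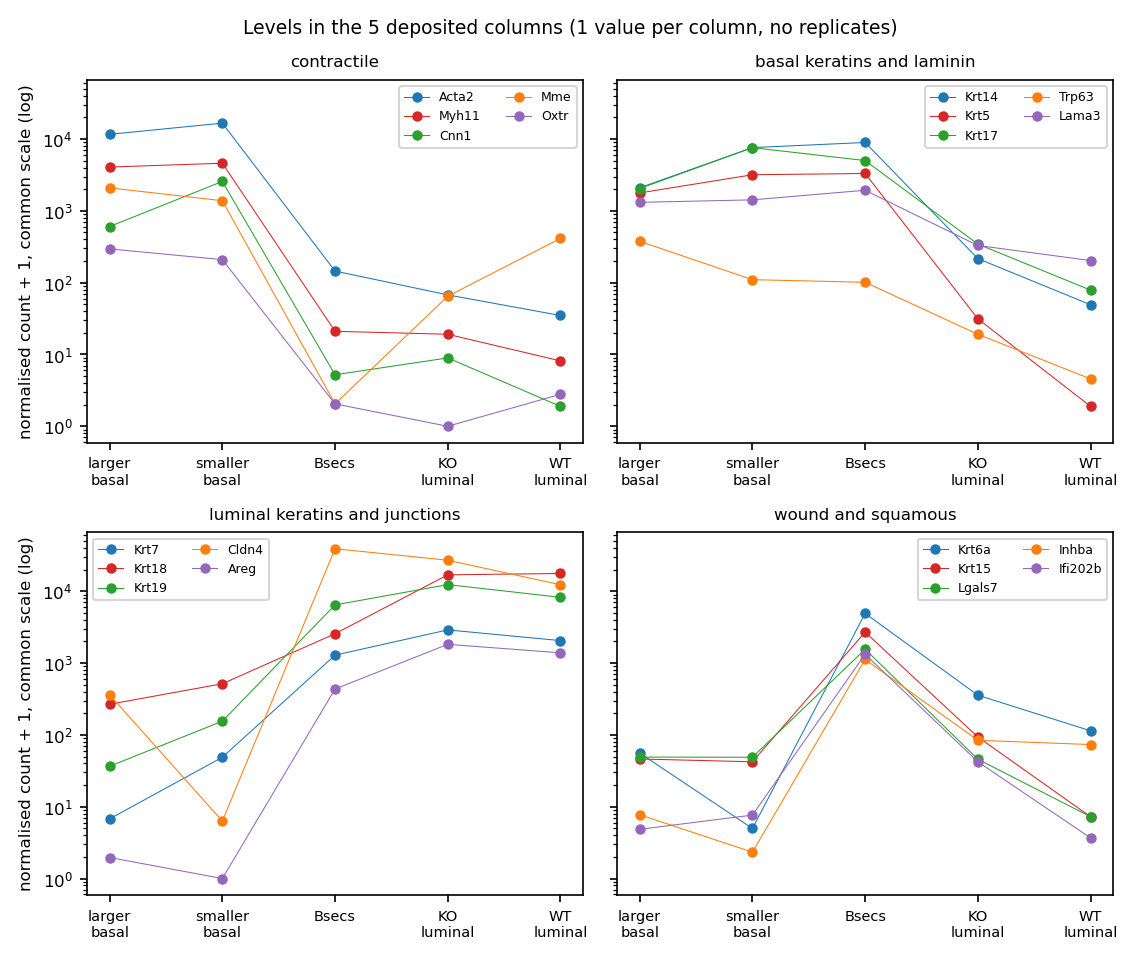
Common-scale value plus 1 (log axis) of selected genes in the 5 distinct columns of the series, with faint lines that only join the values of 1 gene, since the columns have no order. Acta2, Myh11, Cnn1 and Oxtr are low in Bsecs and in both luminal columns (Mme is low in Bsecs but at 412 in wild-type luminal cells), whereas wound genes such as Krt6a are highest in Bsecs.

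Luminal transcription factors mostly had ratios above 1, while basal and mesenchymal ones showed both signs. Of 14 measured luminal and hormone-sensing factors 8 were higher and none lower (median 2.09). Foxa1, a pioneer factor for hormone receptors, had 216 counts against 2 (119-fold, 32.5 to 987) and a level of 228, close to the 239 and 246 of the luminal columns. The ETS factor Ehf had 135 counts against 0 (at least 49.5-fold). The progesterone receptor Pgr (352 against 18, 21.5-fold, 13.4 to 36.7) and the co-activator Cited1 (220 against 1) had levels of 371 and 232 in Bsecs, against at least 795 in either luminal column for each. Gata3, the master factor of the luminal lineage, was not among them, at 173 against 226 counts. Of 15 basal and mesenchymal factors 4 were lower and 3 higher (median -1.70). The higher ones included Id2 (164 against 18) and Msx2 (396 against 1), which is counted in the luminal list as well. Sox10, a neural crest and basal mammary factor, had 2 counts against 270 (123-fold, 33.6 to 1019), and the mesenchymal repressor Zeb2 8 against 127. Trp63, which specifies basal epithelia, had 95 against 390, a 3.73-fold lower value (2.98 to 4.72) that missed the 4-fold rule. The larger basal column stood apart from the smaller one here, with 375 on the common scale against 109, and Bsecs at 100.1.

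Markers used for mammary stem cells did not move together. Among 15 measured, 4 were higher and 3 lower. The lower ones were the R-spondin receptors Lgr5 (1 count against 109, 99.1-fold lower, 17.4 to 3949) and Lgr4 (41 against 603, 13.4-fold, 9.74 to 18.8), and Cdh5 (9 against 117), also an endothelial gene. The protein C receptor Procr, a marker of a basal stem cell fraction, had 152 against 661 (3.95-fold lower, 3.31 to 4.75) and missed the 4-fold rule. On the common scale it stood at 160.1 in Bsecs and 181 in the smaller basal column. Prom1 (169 against 15), Aldh1a3 (230 against 12, 21.1-fold, 11.8 to 41.4) and Ly6d (2814 against 16), which label luminal cells, were higher. The surface proteins Cd24a (2657 against 850, 3.44-fold) and Epcam (6219 against 2778, 2.46-fold), had ratios above 1 without reaching 4-fold.

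Epithelial junction genes were mostly at higher values. Of 18 cadherins and desmosomal genes 6 were higher and 2 lower (median 1.04), and of 11 tight junction genes 4 were higher and none lower (median 1.42). E-cadherin, Cdh1, had 14270 counts against 2239 (7.01-fold, 6.70 to 7.33), and P-cadherin, Cdh3, of basal cells 434 against 575. The desmosomal cadherin Dsg3 of stratified epithelia had 193 against 6 (35.4-fold, 15.96 to 97.6) and common-scale levels of at most 5.77 in the 4 other columns. Its neighbours in the junction differed from it in this, since Dsc2 and Pkp2 had higher values in wild-type luminal cells (241 and 519) than in Bsecs (176 and 302). The claudin Cldn4, which seals tight junctions, had the highest counts of the leading genes, 37070 against 374 (109-fold, 98.5 to 121). Cldn7 (251 against 10), the scaffold cingulin, Cgn (120 against 5), and occludin, Ocln (234 against 34, 7.57-fold, 5.27 to 11.2), were higher with it. The 2 lower cadherins were Cdh5, known from endothelium (9 against 117), and Cdh11, known from mesenchyme (19 against 86). Whether their reads came from other cell types was not tested.

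Genes of squamous differentiation formed the group with the highest median, 4.72, with 6 of 8 measured members higher and none lower. With 10 in place of 1 added to the values the median was 3.95. The list names 42 genes, of which 19 had 0 counts in both columns, so most of the cornification programme was not measured. Sfn (14-3-3 sigma, a keratinocyte cell cycle brake) had 50397 counts against 1075 (51.6-fold, 48.5 to 54.8). Its common-scale level was 53090 in Bsecs, 1034 in the larger basal column and 20297 in the smaller, so that the fold over the smaller column is far less. Sprr1a, an envelope precursor induced in injured epithelia, had 5286 against 49 (119-fold, 89.6 to 161), and galectin 7, Lgals7, 1477 against 50 (32.5-fold, 24.5 to 43.98). The calmodulin-like Calml3 had 105 against 0 (at least 38.5-fold) and the Ly6-family Lypd3 650 against 32. Some markers of suprabasal differentiation were near 0. The envelope protein involucrin, Ivl, had 3 counts against 0 and the spinous-layer keratin Krt10 3 against 12 (both named after their values were seen). Among S100 proteins 3 of 6 were higher, with S100a14 at 869 against 35 (27.3-fold, 19.5 to 39.5), and S100a14, S100a16, S100a6 and Sprr1a are consecutive measured protein-coding genes on chromosome 3.

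Promoters of these epithelial genes were searched for TGANTCA, the AP-1 motif, which reads the same on both strands. It lay within 250 bases of the start in 8.49% of 471 promoters of higher genes, 5.91% of 440 of lower genes, 4.68% of 6027 of all measured genes and 6.75% of all 32851 promoters. Among the 15 leading higher genes 12 had a promoter in the table and 3 of those held it, each with 2 matches. These are Cldn4 (starting 240 and 158 bases before the start), F3 (146 and 135) and Sprr1a (146 and 116). They are printed because they are also the leading genes with the most basal counts, with the matches in capitals. The GRCm38.p6 positions are chr5:134946935-134947184 (minus strand) for Cldn4, chr3:121723287-121723536 (plus) for F3 and chr3:92485882-92486131 (minus) for Sprr1a. A match describes the letters in the window and not binding.
Cldn4: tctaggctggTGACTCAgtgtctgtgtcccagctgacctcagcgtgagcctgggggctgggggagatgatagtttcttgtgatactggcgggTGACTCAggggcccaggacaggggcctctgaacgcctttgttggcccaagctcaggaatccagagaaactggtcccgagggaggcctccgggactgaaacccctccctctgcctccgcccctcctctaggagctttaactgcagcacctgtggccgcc
F3: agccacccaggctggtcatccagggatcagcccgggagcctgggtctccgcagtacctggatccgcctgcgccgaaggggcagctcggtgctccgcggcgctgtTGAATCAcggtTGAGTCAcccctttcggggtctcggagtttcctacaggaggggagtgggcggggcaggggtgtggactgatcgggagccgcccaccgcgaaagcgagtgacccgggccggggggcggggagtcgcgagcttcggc
Sprr1a: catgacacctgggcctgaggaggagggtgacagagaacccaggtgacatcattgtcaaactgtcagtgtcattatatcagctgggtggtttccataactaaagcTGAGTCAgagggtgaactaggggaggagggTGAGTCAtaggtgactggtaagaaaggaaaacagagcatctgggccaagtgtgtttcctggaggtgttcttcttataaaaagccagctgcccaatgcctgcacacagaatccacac

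The genes of AP-1 and other immediate early factors were measured in 20 cases, of which 5 were higher and none lower (median 1.15). Jun had 1948 counts against 337 (6.36-fold, 5.66 to 7.16), Jund 121 against 20 and Fosl1, the FRA-1 partner found in migrating keratinocytes, 221 against 43 (5.65-fold, 4.06 to 8.03). Klf4, a barrier-forming factor of epidermis, had 895 against 103 (9.56-fold, 7.79 to 11.8). Fos and Fosb, the fastest of these factors, did not pass (152 against 75 and 161 against 205) and were both highest in wild-type luminal cells, at 906 and 1885 on the common scale against 160.1 and 169.6 in Bsecs. Fosl1 was higher still in the smaller basal column (392) than in Bsecs (233).

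**Figure D3:**
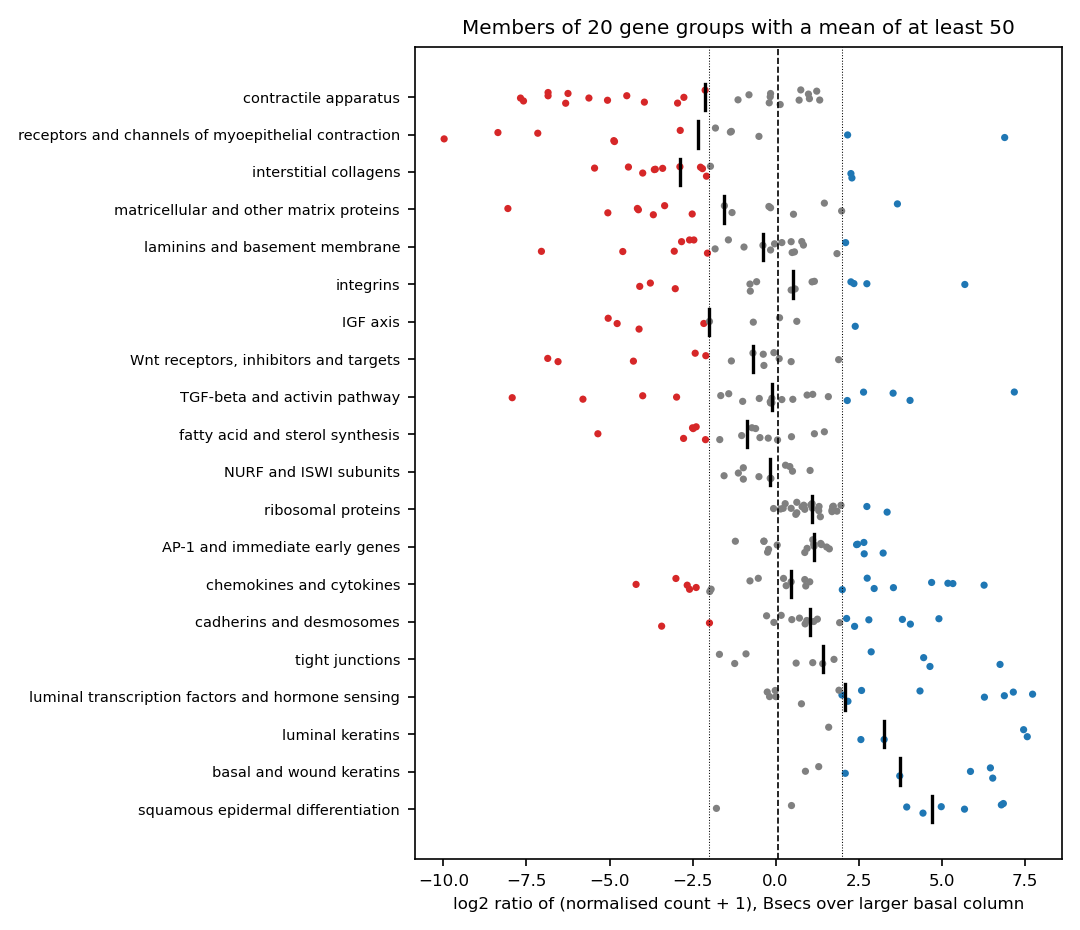
Log2 ratio of Bsecs over the larger basal column, computed from values plus 1, for the measured members of 20 gene groups, 1 dot per gene (blue higher, red lower, grey not called), with a bar at the group median, a dashed line at the median of all genes and dotted lines at 4-fold. The medians of the squamous and keratin groups lie to the right of 0 and those of the contractile and collagen groups to the left. Groups such as the TGF-beta pathway have members past 4-fold on both sides.

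Extracellular matrix genes were lower in the main. Of 13 interstitial collagens and collagen enzymes 10 were lower and 2 higher (median -2.88). Col12a1, a fibril-associated collagen, had 138 counts against 2441 (16.1-fold, 13.5 to 19.2), and Col14a1 19 against 957 (45.8-fold, 29.2 to 76.4). The higher pair, named after their values were seen, were Col18a1, the basement membrane collagen that yields endostatin (1155 against 258, 4.92-fold, 4.30 to 5.66), and the collagen-modifying enzyme P4ha2 (162 against 36). Matricellular proteins showed 7 of 15 lower and 1 higher (median -1.54). Ctgf, a YAP and TGF-beta target, had 18 against 5562 (281-fold, 178 to 474), periostin, Postn, 119 against 4364 (33.3-fold, 27.8 to 40.3) and Sparc 128 against 2474. Tenascin C, Tnc, a matrix protein of wounds, was the higher one, at 6201 against 535 (12.7-fold, 11.7 to 13.95), while Thbs1 had 15514 against 19620. Fibroblast markers were lower in the main too, but this list shares Col1a1, Col1a2 and Col3a1, all called lower, with the collagen list. The summed counts of its 12 genes were 780 in Bsecs and 3587 in the larger basal column, none of them at 0 in either. Of 8 measured 6 were lower, the shared collagens included, among them Dcn (188 against 1349) and Pdgfra (2 against 107). Dcn was at 130.1 in the smaller basal column against 1297 in the larger, and Lum at 3.98 against 154. The part of fibroblast RNA in the collagen and matrix differences was not tested.

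Of 21 laminin and basement membrane genes 7 were lower and 1 higher (median -0.38). Lamb3, the beta chain of the laminin 332 that anchors hemidesmosomes, was higher (955 against 243, 4.32-fold, 3.75 to 5.0), and its alpha chain Lama3 had 1833 against 1362. Lama1 had 0 counts against 138 (at least 41.8-fold lower), and Col4a5 and Col4a6 had 9 against 264 and 20 against 190. Dystonin, Dst, which ties keratin to hemidesmosomes, was 6.03-fold lower. Among 14 integrins 4 were higher and 3 lower. Itgb6, which pairs with alpha v on wounded epithelium and releases active TGF-beta, had 6864 against 144 (52.4-fold, 44.5 to 62.3). Itgb4 of the hemidesmosome had 1738 against 371 and the collagen receptor Itga2 2225 against 364, whereas Itga8 (7 against 148) and Itga9 (18 against 283), whose integrins bind matrix ligands such as tenascin, were lower. Itga3 and Itga5, at 2.26-fold and 1.70-fold in opposite directions, were not called.

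Protease genes showed both signs. In the ADAM and ADAMTS families 5 of 9 were lower and 1 higher (median -4.05). Adamts1 (193 counts against 5236, 24.7-fold, 21.4 to 28.6) and Adamts5 (41 against 1197, 26.5-fold, 19.4 to 37.2), which cut proteoglycans, were lower, as were Adam12 (5 against 495) and Adam19 (1 against 737). The higher one was Adam8, 1424 against 5 (313-fold, 134 to 966), a protease of activated leukocytes and tumour cells. Of the plasminogen system and serpins 4 were higher and 6 lower. Urokinase, Plau, and its receptor Plaur were both higher (1558 against 338 and 1642 against 297), and the tissue activator Plat was lower (54 against 289). The intracellular inhibitor Serpinb2 was 15.6-fold higher (12.5 to 19.8), and the secreted inhibitors Serpina3n (35 against 1317), Serping1 and Serpinf1 and the collagen chaperone Serpinh1 were lower. Timp3, the matrix-bound metalloproteinase inhibitor, had 23304 against 1818 (14.1-fold, 13.4 to 14.8). Its level of 24549 in Bsecs stood beside 520.4 to 1748 in the 4 other columns. Mmp13 was higher (118 against 23) and Mmp2 (14 against 271) and Mmp3 (16 against 112) lower.

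Ligands of the EGF receptor were read at very different values. Of 6 measured, 3 were higher and 1 lower. Epgn (epigen) had 1749 counts against 15 (128-fold, 77.5 to 229.7) and was at 1842 on the common scale in Bsecs, 466 and 308 in luminal cells and at most 14.4 in the basal columns. Amphiregulin, Areg, which carries the oestrogen signal in the gland, had 412 against 1 and was lower in Bsecs (434) than in luminal cells (1387 and 1822). Hbegf had 492 against 55 (9.84-fold, 7.44 to 13.3), and epiregulin, Ereg, went the other way with 26 against 401 (14.02-fold lower, 9.43 to 21.7). The receptor Egfr itself had 478 against 1401, a 2.66-fold lower value, and Erbb2 354 against 156. In the FGF group the receptor Fgfr3 was 110.4-fold higher (57.9 to 242), with 903 counts against 9 and at most 80.97 on the common scale outside Bsecs, where it was at 951. Fgfr1 and Fgfr2 had 439 against 783 and 164 against 462.

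The TGF-beta and activin pathway had 5 higher and 4 lower members of 22, with a median of -0.11. Its ligands were higher, Inhba (activin A) at 1067 counts against 7 (168-fold, 81.1 to 418), Tgfb1 at 360 against 33 (12-fold, 8.39 to 17.7) and Tgfb2 at 1343 against 235 (6.29-fold, 5.47 to 7.25). The latent binding protein Ltbp1 had 2800 against 185 and its relative Ltbp2 98 against 1736, so these carriers differed in sign. Lower members included the co-receptor betaglycan, Tgfbr3 (3 against 1056, 320.0-fold, 109 to 1554), and the follistatin-like Fstl1 (15 against 977, 59.2-fold, 35.7 to 106). None of 6 measured BMP genes passed 4-fold.

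The IGF axis was lower in 4 of 9 measured genes and higher in 1 (median -1.99). Igfbp5, an IGF-binding protein linked to involution, had 76 counts against 2793 (33.4-fold, 26.6 to 42.5), Igfbp7 28 against 867 and Igfbp2 5 against 112. The higher one was Igfbp4, 374 against 77 (5.34-fold, 4.17 to 6.92). Pappa, the protease that cuts Igfbp4 and Igfbp5, had 2 against 1012 (460.0-fold lower, 127 to 3804). Among Wnt receptors, inhibitors and targets 5 of 13 were lower and none higher. They were Fzd7 (15 against 1644, 99.6-fold, 60.2 to 178), Fzd1 (14 against 318), Fzd3 (48 against 287), the secreted inhibitor Sfrp1 (0 against 121, at least 36.7-fold) and the nuclear effector Tcf7 (33 against 159). Wnt7b was the 1 called ligand of 3 measured, at 694 against 26 (29.4-fold higher, 19.9 to 45.3), and stood at 731 in Bsecs beside 474 and 677 in luminal cells. Of 6 Notch genes only Notch1 passed (309 against 32, 10.6-fold, 7.37 to 15.8), and the ligands Jag1 and Dll1 had ratios of 1.10 and 1.21.

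Cytokine and chemokine genes gave 8 higher and 5 lower of 23. Csf2 (GM-CSF) had 1179 counts against 49 (26.5-fold, 19.9 to 35.98) and at most 47.8 on the common scale outside Bsecs. Il1rn, the interleukin 1 antagonist, had 1064 against 31 (37.8-fold, 26.4 to 55.9), Tnf 368 against 9 (44.98-fold, 23.4 to 99.1), Lif 5093 against 715 and Ccl20, which attracts CCR6-bearing cells, 214 against 2. Tnf was not highest in Bsecs, at 388 there and 516 and 565 in luminal cells. Cxcl14 was lower (55 against 1129, 18.7-fold, 14.2 to 24.9), and Cxcl1 and Cxcl2 were within 1.5-fold. In the NF-kB pathway 4 of 17 were higher, including Tnfaip3, its feedback inhibitor (3108 against 845, 4.05-fold, 3.75 to 4.37), and the receptor Tlr2 was lower (130 against 1119). Interferon genes were called in 3 of 16 cases. Ifi202b, a DNA-binding protein of the Ifi200 cluster, was the 1 higher (1258 against 4), with Gbp2 (66 against 894) and Oasl2 (57 against 295) lower, and the signalling factor Irf9 at 179 against 165. Secreted defence and surface proteins differed in sign: clusterin, Clu, had 7546 against 313 (26.5-fold, 23.7 to 29.8) and Ceacam1 109 against 4, while the iron-trapping Lcn2 had 611 against 10462 (15.6-fold lower, 14.3 to 16.9). Lcn2 was lowest in Bsecs of all 5 columns, at 644 beside 8836 to 20628.

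Among cytoskeletal regulators outside the contractile set, 7 of 23 actin remodelling genes and 4 of 13 tubulin genes were higher and none lower (medians 1.03 and 0.76, the second below 0 on total counts). The septin and actin scaffold anillin, Anln, had 1514 counts against 5 (333-fold, 142 to 1027), and the filopodial bundler fascin, Fscn1, 998 against 108 (10.2-fold, 8.33 to 12.5). Tubb6 had 12015 against 1218 (10.9-fold, 10.2 to 11.5), Tuba8 942 against 14 and Tubb2b 517 against 1. Anillin acts in cytokinesis, but other genes of division were hardly read: the 23 G2 and M phase genes summed to 102 counts in Bsecs and 116 in the larger basal column, and none reached the minimum. Mki67 had 3 counts against 26 (named after its value was seen). Of 3 measured S phase genes none passed. Cdkn1a (p21), which halts the cycle, had 4572 against 230 (21.9-fold, 19.1 to 25.1), with 1050 on the common scale in the smaller basal column and 4816 in Bsecs. Of 16 p53 targets, Cdkn1a included, 3 were higher and 2 lower, and Mdm2 had 195 against 267. The other two higher ones were the death-promoting Pmaip1 (115 against 1) and Trp53inp1 (618 against 69).

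Of 25 ribosomal protein genes 24 had a ratio above 1 and 2 passed 4-fold, Rpl13 (1252 counts against 133) and Rps19 (1189 against 193), with a median of 1.10, which is 1.02 above that of all genes. Of 21 ribosome biogenesis genes Npm1 (7090 against 1640, 4.76-fold, 4.51 to 5.02) and Rrp9 were higher and 19 were not called. Rrp9 was at 255 on the common scale in Bsecs and at 408 in the smaller basal column. Fatty acid and sterol synthesis gave 6 lower of 16 and none higher (median -0.87). The elongase Elovl6 had 2 against 131 and squalene epoxidase, Sqle, 92 against 536 (5.30-fold lower, 4.24 to 6.68). The glucose transporter Slc2a1 was the single called gene of 13 in glycolysis and hypoxia (3133 against 817, 4.22-fold, 3.90 to 4.56). Of 17 BAF remodelling subunits only Dpf2 passed (364 against 90, with 383 on the common scale in Bsecs and 324 in the smaller basal column), and the ATPase Smarca4 had 778 against 528.

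**Figure D4:**
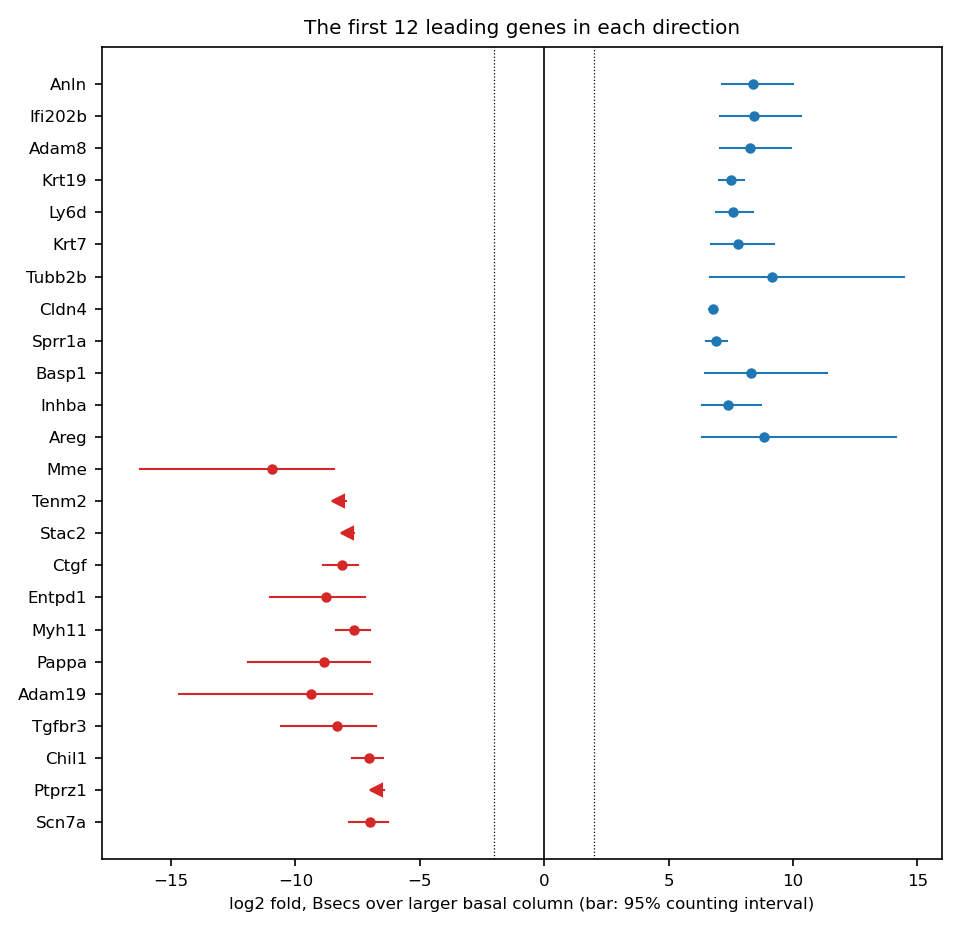
Log2 fold of Bsecs over the larger basal column for the first 12 leading higher and first 12 leading lower genes, ranked by the end of the 95% counting interval nearest to 1; bars are those intervals and triangles mark bounds for genes with 0 Bsecs counts. Cldn4 and Krt19 have narrow intervals (98.5 to 121 and 132 to 259 as folds), whereas Tubb2b, with 1 basal count, spans 102 to 22505.

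Leading genes outside these groups were few. Among the higher ones, tissue factor, F3, which starts coagulation, had 18939 counts against 234 (89.03-fold, 78.3 to 102). Its level of 19951 in Bsecs compared with 4797 and 8191 in luminal cells and 225 and 417 in the basal columns. Among the lower ones were the teneurin Tenm2, an adhesion receptor (0 against 1032, at least 313-fold), and the chitinase-like Chil1 (23 against 3369, 133-fold, 88.6 to 210.4). The phosphatase Ptprz1 (0 against 358, at least 108-fold), the matrix proteoglycan Prelp (12 against 1610, 122-fold, 69.6 to 237) and the ectoenzyme Entpd1 (3 against 1429) were lower too. The ectoenzyme Mme (1 against 2169), also a leading lower gene, is counted in the contraction list above. In 9 of the 15 leading lower genes, Bsecs held at most 3 counts. In the genome, 10 runs of at least 3 consecutive measured protein-coding genes were all higher and 4 all lower, over 5775 placed genes. Keratin clusters gave 3 of the higher runs, Krt15, Krt19, Krt14 and Krt16 on chromosome 11 and Krt80, Krt7 and Krt6a, and Krt4, Krt8 and Krt18, on chromosome 15. Igfbp2, Igfbp5 and Tns1 on chromosome 1 formed a lower one.

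Among axon guidance genes 2 of 16 were higher and 4 lower, with the repellent ligand Slit3 at 2 counts against 183 (83.2-fold lower, 22.7 to 692) and the ephrin ligand Efnb1 at 358 against 23 (17.1-fold higher, 11.2 to 27.4). The Eph receptor Epha2 had 735 against 94, but its common-scale level in the smaller basal column (762) was near that in Bsecs (774). In the gap junction group the basal connexin Gja1 had 1834 against 1412 (1.43-fold, 1.33 to 1.53). None of 5 hyaluronan genes passed, and the receptor Cd44 had 12745 against 5843 (2.40-fold, 2.33 to 2.48). EGF receptors and feedback genes had 2 higher (Dusp4 and Rhbdf1) and 1 lower (Spred1, 4.27-fold) of 12. Antigen presentation had 2 higher and 1 lower of 11, and the class I genes H2-K1 and H2-D1 lay at 1.11-fold and 1.37-fold. Of the 7 measured mucins and secretory surface genes 3 were higher and 1 lower. Both measured milk and alveolar genes were lower, Glycam1 (3 against 193) and Xdh (50 against 617).

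Markers of other cells were low in both columns. The lists of T and NK cell, B cell, neutrophil and mast cell markers each held at most 2 counts per column. Macrophage markers summed to 81 counts in Bsecs and 38 in the larger basal column, with none reaching the minimum. Endothelial markers summed to 202 and 294, where 179 of the Bsecs counts were the VEGF receptor Flt1 (11.6-fold higher) and 8 of 12 markers were at 0, against none at 0 in the basal column. Pericyte markers summed to 83 and 390 and Schwann and nerve markers to 244 and 412. Sox10, counted above among basal factors, is in the last of these lists too. Adipocyte (17 and 43 counts), skeletal muscle (7 and 23), erythrocyte (19 and 13) and melanocyte markers (0 and 7) were near 0. The part of these cells in any difference was not tested.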

How the data were processed

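RNA was extracted with TRIzol from sorted cells and amplified with a kit for small inputs (Ovation RNA-seq V2) before library preparation, per the labels' protocols. STAR, DESeq and the mm9 build are listed, per the submitters' processing notes. How reads were counted, and on which strand, is not given in the sources used here. In all, the authors deposited 6 tables, 1 per comparison, each with a signal column per group (normalised read counts headed as means) and p-values, per the file headers. Dividing by the step of each column gave whole counts for 100% of values (within 0.01), and 5 distinct columns.

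Folds used the deposited means of genes with a mean of at least 50. A call needed 4-fold. Where a column had 0, a floor of 3 counts was used. Group medians used log2 of values plus 1. The deposited p-values compare single columns, measure no spread between replicates and were adjusted by the Benjamini-Hochberg method over 14986 genes. Common-scale levels are recovered counts over median-of-ratios factors of the 5 columns. Damaged or repeated symbols (27 dates, 4 duplicates) entered totals only.

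Named genes were Bptf, the 15 leading genes per direction (predicted genes and small RNAs passed over), and per list up to 6 called members plus the first 4 measured. Others are marked as named after their values were seen. The 63 lists (1178 entries, 10 unmatched) and the members were chosen with earlier results of these data known. Python 3.11.15, numpy 2.4.6, pandas 2.3.3, scipy 1.17.1, R 4.3.3 and edgeR 4.0.16 were used, the last only for an alternative scale and an alternative count of calls. Scripts were tested on simulated data.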

Additional observations from a re-analysis of the deposited data

How the results depend on the processing

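No paired analysis was possible because the deposited tables hold no column per library, and for the same reason no replicate could be left out. Higher and lower calls numbered 210 and 1003 on total counts, 695 and 825 with a mean of at least 20, 199 and 127 with at least 200, and 2079 and 3803 with no minimum. At 2-fold they numbered 1310 and 1078, and at 8-fold 211 and 231. With edgeR's exact test at a dispersion set to 0.16 the numbers were 523 and 753. By the authors' p-values 67 and 68 passed with adjustment over genes of mean 50 or more, and 58 and 58 at an adjusted p under 0.10. Group medians were rerun with TMM, without Rn45s, with a pseudocount of 10 and with means of at least 20 and 200, but not on total counts, which shift every log2 ratio by -0.77. Among these, medians that changed sign were those of cyclins and CDK inhibitors (0.27, to -0.74 with a mean of at least 20 and -1.09 without Rn45s), Notch genes (0.13, to -0.23 without Rn45s) and, with a mean of at least 200, laminins (-0.38, to 0.08), plasminogen system and serpins (-1.62, to 0.48) and p53 targets (-0.47, to 0.57). With a mean of at least 200 the medians of the contractile apparatus (-0.80), contraction receptors (-4.85), basal factors (-0.89), EGF ligands (3.27), IGF axis (-1.33), integrins (1.72), ADAM genes (-4.66), S100 proteins (2.38) and tubulins (1.38) kept their sign but moved. So did, with a mean of at least 20, ADAM genes (-2.93), serpins (-0.99) and mucins (2.77). A pseudocount of 10 moved basal keratins (2.98), ADAM genes (-3.33) and squamous genes (3.95). Leaving out Rn45s moved the contractile apparatus (-2.79), matricellular proteins (-2.38), serpins (-2.62), tight junctions (0.91) and squamous genes (4.08). TMM and 5-column factors left the folds of all 327 named genes within their counting intervals, and leaving out Rn45s moved 138 of them beyond. Genes with few counts in either column have wide intervals.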
